A study of Mus musculus with 12 samples.

Results

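The accessible chromatin at 3 genes chosen as identity loci of dentate granule neurons, Prox1, Neurod1 and Camk2a, is described here in mice of the groups E0, E1 and E4. Camk2a is a gene of excitatory forebrain neurons and not of granule neurons alone. The members are every peak that overlaps a set mm9 window, made up of a stretch that holds the gene (the gene part) and 50 kb on each side. The gene parts were chromosome 1 from 191942000 to 191995000 for Prox1, chromosome 2 from 79292000 to 79297000 for Neurod1 and chromosome 18 from 61085000 to 61148000 for Camk2a. The 3 windows held 285 of the 718062 peaks in the 12 lists, and these peaks merged into 64 of the 170710 accessible regions of the whole series, 24 at Prox1, 12 at Neurod1 and 28 at Camk2a. The assay was ATAC-seq, which cuts and tags open DNA with a transposase, and a peak is a place where the caller found a pile-up of these cuts. Each library came from the microdissected dentate gyrus of an individual 8-week-old C57BL/6 mouse, with 4 libraries in each of E0, E1 and E4. The series title calls the mice wild type and its design text concerns neuronal activation, but the meaning of E0, E1 and E4 is not in the labels. By general knowledge of the published work, E0 mice were unstimulated and E1 and E4 mice were taken 1 h and 4 h after electroconvulsive stimulation. The tissue holds other cells besides granule neurons, so a change in the share of a cell type and a change in accessibility per cell cannot be told apart.

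The dentate gyrus is the input gate of the hippocampus, and granule neurons are its principal cells. Prox1 encodes a homeodomain transcription factor that specifies granule neurons and maintains their identity. Neurod1 encodes a basic helix-loop-helix factor that drives the differentiation of neuronal precursors and binds E-boxes, short sites of the form CANNTG. Camk2a encodes the alpha subunit of calcium/calmodulin-dependent protein kinase II, an abundant synaptic enzyme of excitatory forebrain neurons that is activated by calcium entry.

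The gene part measured 53 kb at Prox1, 5 kb at Neurod1 and 63 kb at Camk2a, against gene lengths of 52.8, 4 and 62.8 kb in RefSeq, so its edges mark the gene only roughly. Prox1 and Neurod1 are transcribed from the minus strand and Camk2a from the plus strand, which puts the start of the gene at 191995000, 79297000 and 61085000 on this approximate scale. No exon or intron was assigned, since the gene table at hand is of GRCm38 and the peaks are in mm9. In the order of genes in that table, the nearest protein-coding neighbours are Smyd2 and Rps6kc1 for Prox1, Cerkl and Itprid2 for Neurod1, and Arsi and Slc6a7 for Camk2a. Cerkl, Arsi and Slc6a7 come within 50 kb of the gene beside them, so peaks in those flanks may belong to either gene.

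The promoters of Prox1 and Neurod1 are shown because peaks were called at the start of both genes. They are the 250 bases before the start of the gene, 5′ to 3′ on the minus strand, from RefSeq in GRCm38.p6, at chr1:190170828-190171077 and chr2:79456637-79456886. These positions are of another build than the peaks. Capitals mark each E-box CANNTG, and 2 of the 3 genes had an entry in the table.
Prox1: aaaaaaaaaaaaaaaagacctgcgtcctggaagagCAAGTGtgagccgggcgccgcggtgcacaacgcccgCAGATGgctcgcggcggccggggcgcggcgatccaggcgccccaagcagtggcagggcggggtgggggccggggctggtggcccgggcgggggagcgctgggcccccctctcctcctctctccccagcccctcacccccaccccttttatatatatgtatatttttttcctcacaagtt
Neurod1: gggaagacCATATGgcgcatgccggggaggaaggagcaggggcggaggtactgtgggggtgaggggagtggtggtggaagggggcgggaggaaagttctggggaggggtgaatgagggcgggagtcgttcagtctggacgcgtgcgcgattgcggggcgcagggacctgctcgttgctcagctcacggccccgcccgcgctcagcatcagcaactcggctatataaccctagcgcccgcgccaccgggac
Prox1 had 2 E-boxes, which began 215 and 179 bases before the start. Neurod1 had a single one, CATATG, which began 242 bases before it. On either strand, CANNTG was found in 66.2% of 32851 mouse promoters of this length, and CATATG, which is one form of it, in 3.46%. Both promoters also held TATATA, which began 31 bases before the start of Neurod1 and, in overlapping copies, 32 and 30 bases before that of Prox1, against 5.25% of all promoters with a match. Neither promoter held TGANTCA or TGACGTCA, the sites of the AP-1 and CREB families (6.75% and 1.55% of all promoters, both strands searched). GC made up 64.8% of the bases at Prox1 and 67.6% at Neurod1, where the median promoter had 52.4%.

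The lists differed in length, from 24426 to 104120 peaks on chromosomes 1 to 19 and X, and covered 7.48 to 59.5 Mb. The longest list was that of E4 replicate 1, and the other three E4 lists were the shortest of the 12. In the 3 windows together, a library had 9 to 42 peaks, the highest number again in E4 replicate 1. The depth behind each list is unknown, so the absence of a peak means no call, and not closed chromatin. Group means of covered length and counts of lost regions are given without E4 replicate 1 as well.

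Few of the 64 regions were called in every mouse. Of the 64, 2 regions (3.12%) had a peak in all 12 libraries, against 5.29% of all regions of the series, and 7 (10.9%) in 10 or more, against 11.5%. A peak in a single library was seen at 19 regions (29.7%, against 35.1%). Of these 19, 13 lay at Camk2a, 4 at Prox1 and 2 at Neurod1. The median region of the windows was 576.5 bp wide, and that of the series 399 bp. Of the 64 regions, 29 were called in 4 or more libraries, 11 at Prox1, 6 at Neurod1 and 12 at Camk2a.

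**Figure D1:**
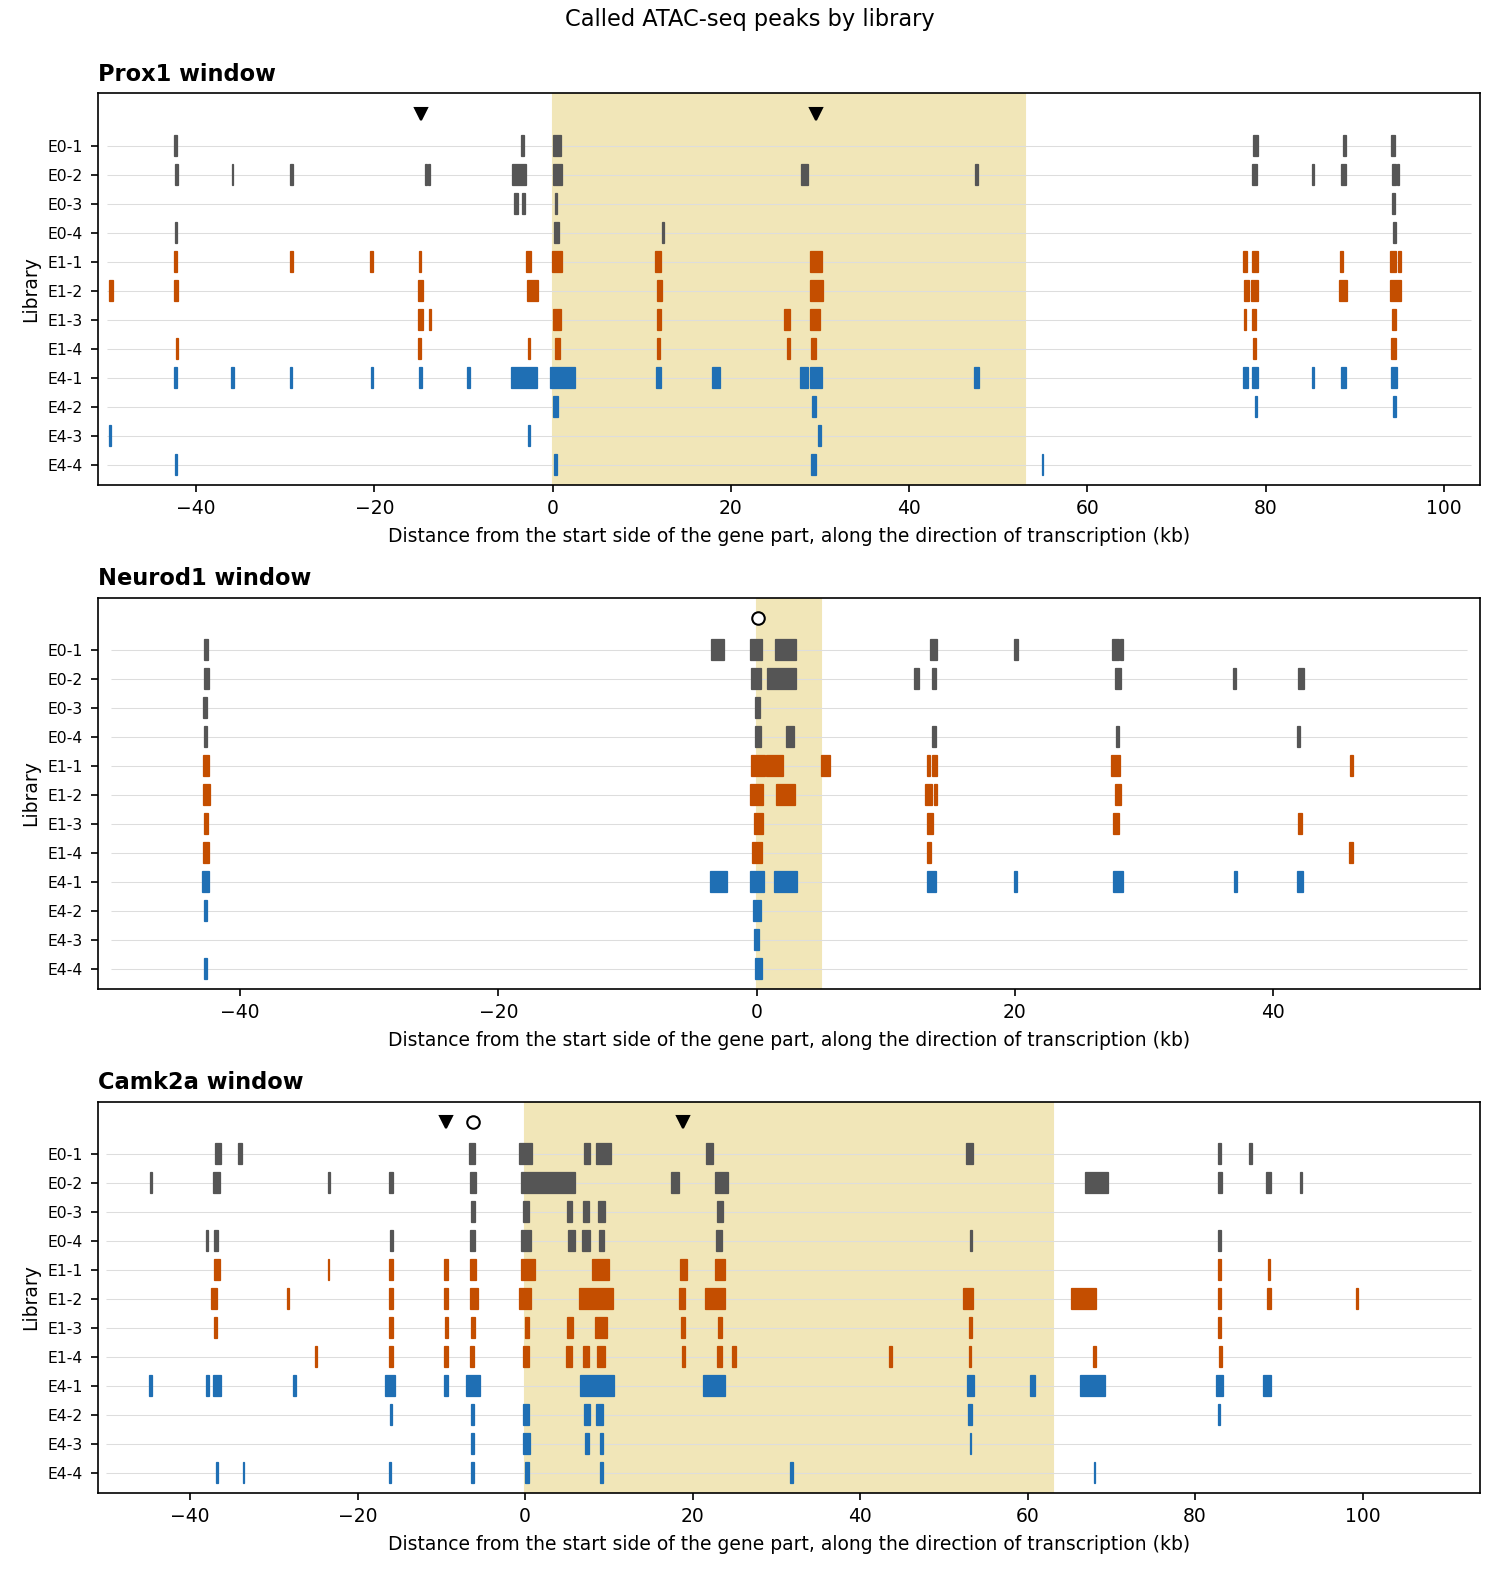
Each bar is a called peak, drawn to scale along the direction of transcription in kb from the start side of the gene part (shaded), with 1 row for each library (group-replicate). Open circles mark the 2 regions called in all 12 libraries and triangles the 4 regions called in all E1 and no E0 libraries. Peaks recur at the start of each gene. E4-1 has the most peaks in the windows together, but at Camk2a E1-4 has 15 and E4-1 has 14.

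At Neurod1, the start of the gene was accessible in every mouse. The region from 79296313 to 79297537 (1225 bp) had a peak in all 12 libraries, and all 12 peaks covered position 79297000, the start side of the gene part. Peaks were 424 to 903 bp wide in E0, 738 to 1137 bp in E1 and 380 to 1093 bp in E4, and all shared the 301 bp from 79296793 to 79297093. The score is the peak caller's own value as deposited, and no source used here states its scale, so a peak is placed by the percentile of its score within the list of its library. E0 replicates 1 to 4 placed this peak at percentile 78.3, 84.1, 90.9 and 76.7. E1 replicates 1 to 4 gave 77.9, 86.6, 82.2 and 87.8, and E4 replicates 1 to 4 gave 73.1, 68.1, 23.5 and 63.4. It thus lay at percentile 76.7 or above in every E0 and E1 list, and at 73.1 or below in every E4 list. Percentiles from lists of unequal length do not show a change between groups. The peak of E4 replicate 3 had a score of 57.9, near the lowest score of any list, 50. When all lists were cut to the 24426 highest scores, which gives lists of equal length, 11 of 12 libraries kept the peak. The one that lost it was E4 replicate 1.

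The next most constant site of the Neurod1 window lay 42.6 kb upstream of the start, from 79339327 to 79339911. It had a peak in 11 of 12 libraries, all but E4 replicate 3. Its percentile was 77.4, 79.1, 80.0 and 39.6 in E0 replicates 1 to 4 and 89.0, 69.8, 91.1 and 89.6 in E1. In E4 replicates 1, 2 and 4 it was 82.9, 68.4 and 65.7. The 11 peaks were narrow, from 185 to 529 bp, and shared 171 bp. This site and the start of the gene were the only ones of the Neurod1 window called in 10 or more libraries.

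Further sites of the Neurod1 window were called in E0 or E1 and rarely in E4. Of the regions of this window with a peak in E1 or E4, fewer E4 than E1 libraries had one at 6 of 11. In the series this was so at 89109 of 151249 regions. For E4 and E0, the counts were 6 of 10 in the window and 59645 of 140384 in the series. Whether the window differs from the series was not tested. Inside the gene part, the region from 79293899 to 79296300, just downstream of the start, had a peak in 3 E0, 2 E1 and 1 E4 libraries. In 1 library, E1 replicate 1, a peak reached from 79291314 to 79292044 at the far end of the gene part. Downstream, the region 13.5 kb from the start (79282999 to 79283926) had a peak in 3 E0, 4 E1 and 1 E4 libraries, and the one 27.9 kb from it (79268618 to 79269542) in 3, 3 and 1. At the 3 of these regions with an E4 peak, it was that of replicate 1. In the region 13.5 kb downstream, E0 and E1 peaks overlapped in part, and no stretch was shared by all libraries with a peak. Peaks of all 4 E1 libraries covered 13.183 to 13.409 kb from the start, where no E0 library had a peak. The peaks of E0 replicates 1, 2 and 4 began at 13.452, 13.549 and 13.609 kb. E1 replicates 1 and 2 each had a further peak there, at 13.609 to 13.984 and 13.742 to 14.002 kb. The peak of E1 replicate 3 reached 13.641 kb and overlapped those E0 peaks. The stretch without an E0 peak was chosen after the values were seen. No region of the Neurod1 window, taken whole, met the criterion for a gained or lost region, described next, in any comparison with all libraries.

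A region was called gained when all 4 libraries of the first group and none of the second had a peak, and lost in the opposite case. This is the most extreme split of 4 and 4 libraries (Fisher's exact test, two-sided, p = 0.0286), and after adjustment over all regions no region passed at the level of 0.05. At E1, 4 of the 57 regions of the windows with a peak in E0 or E1 were gained from E0 (7.02%), 2 at Prox1 and 2 at Camk2a. None of the 57 was lost. Over all regions of the series, 3.71% were gained and 0.206% lost by the same criterion. At E4, 1 of 55 regions was gained from E0 (1.82%, against 0.165% of all regions) and 0 were lost (0.177%). Between E4 and E1, 1 of 58 regions was lost (1.72%, against 0.506%) and 0 were gained (0.0112%). With lists of equal length, the Prox1 region described next was the 1 of 19 gained at E1 and at E4 (5.26%), where 4.0% and 0.795% of all regions were. None of the windows' regions was then lost from E0 at E1 (1.62% of all regions) or at E4 (1.05%), and between E4 and E1 none was gained (0.173%) or lost (0.884%). With counts of 0 to 4 regions, whether these shares differ from those of the series was not tested.

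Prox1 held the gained region that was present in both later groups. It lay 29.6 kb inside the gene, on chromosome 1 from 191964698 to 191966177 (1480 bp), and no E0 library had a peak in it. The nearest E0 peak, of replicate 2, lay close beyond its end, from 191966386 to 191967127, at percentile 51.2. E1 replicates 1 to 4 had peaks of 1367, 1401, 1137 and 578 bp with scores of 229, 190.0, 175 and 176. In E4 replicates 1 to 4 the peaks measured 1351, 450, 298 and 488 bp and scored 314, 201, 65.5 and 146. These are percentiles 77.3, 71.0, 79.0 and 80.1 of the E1 lists and 76.9, 87.4, 43.1 and 79.0 of the E4 lists. All but that of E4 replicate 3 were at percentile 71.0 or above, and 7 of the 8 peaks shared the 422 bp from 191965471 to 191965892. The peak of E4 replicate 3 ran from 191964904 to 191965201 and did not reach that stretch. The region was gained at E1 and at E4 with lists of equal length too. There the peaks of E1 replicate 2 and E4 replicate 1 lay just above the cut, and the list of E4 replicate 3, the shortest, was not cut. The peaks of E1 replicate 4 and of E4 replicates 2 to 4 each spanned less than 50% of it, and neither call was made when that share was required. With scores of at least 100 the call at E4 was lost, since E4 replicate 3 fell below that score. The comparisons of E1 and of E4 with E0 share the E0 libraries. In the whole series, 175 regions had this pattern of presence in the 12 libraries.

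The other gained region of the Prox1 window lay 14.8 kb upstream of the start, from 192009528 to 192010096 (569 bp). Its peaks in E1 replicates 1 to 4 scored 166, 294, 98.3 and 72.3, at percentiles 67.0, 83.4, 53.6 and 32.6. Of the E4 libraries, replicate 1 alone had a peak, at percentile 35.6. With lists of equal length a single E1 library kept its peak, and the call was lost. The same presence in the 12 libraries was found at 2833 regions of the series.

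Around the start of Prox1, peaks were lower in their lists than at Neurod1 and shifted in place between libraries. The region over the start side of the gene part, from 191992540 to 191995295, had a peak in 10 of 12 libraries, missing in E1 replicate 2 and E4 replicate 3. The peaks of 2 E0, 1 E1 and 1 E4 libraries covered position 191995000 itself. Its percentile was 68.7, 30.0, 1.57 and 14.2 in E0 replicates 1 to 4, then 50.1, 59.3 and 59.4 in E1 replicates 1, 3 and 4 and 27.6, 67.1 and 43.3 in E4 replicates 1, 2 and 4. The 10 peaks shared 283 bp. Immediately upstream lay a pair of adjoining regions with opposite presence. The nearer (191996645 to 191997961, centred 2.30 kb upstream) had a peak in 0 E0, 3 E1 and 2 E4 libraries, and the farther (191997976 to 191999684, centred 3.83 kb upstream) in 3 E0, 0 E1 and 1 E4 libraries. E4 replicate 1 had a peak in both. Neither met the criterion with all libraries. The nearer was gained at E1 without E1 replicate 3 and the farther lost at E1 without E0 replicate 4. Each library left out was the only one of its group without a peak, so these calls were fixed in advance and add no support. In the series, 10.2% of regions had a peak in 3 or 4 more E1 than E0 libraries, and 1.41% in 3 or 4 fewer. Joining peaks up to 100 bp apart merges the pair into 1 region and removes the contrast. Their percentiles were low, 7.12 to 38.3. At the far end of the gene part, E4 replicate 4 alone had a peak, from 191939979 to 191940151.

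The most constant distal site of the Prox1 window lay 94.6 kb downstream of the start, beyond the end of the gene, from 191899791 to 191901032. It had a peak in all E0 and E1 libraries and in E4 replicates 1 and 2. The percentile was 88.6, 83.9, 68.2 and 79.9 in E0, 95.4, 95.2, 94.2 and 84.5 in E1 and 91.5 and 30.6 in the E4 pair. All 10 libraries kept a peak there with lists of equal length. No region of the Prox1 window had a peak in all 12 libraries. A region 12.04 kb inside the gene (191982465 to 191983458) had a peak in 4 E1 libraries but also in 1 E0 library, replicate 4, at percentile 2.90. That E0 peak (191982465 to 191982754) overlapped the peak of E1 replicate 2 and none of the other E1 peaks. Another, 78.7 kb downstream (191915909 to 191916615), had a peak in 2 E0, 4 E1 and 2 E4 libraries. A neighbour, 77.7 kb downstream (191916938 to 191917574), had one in 3 E1 and no E0 libraries.

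**Figure D2:**
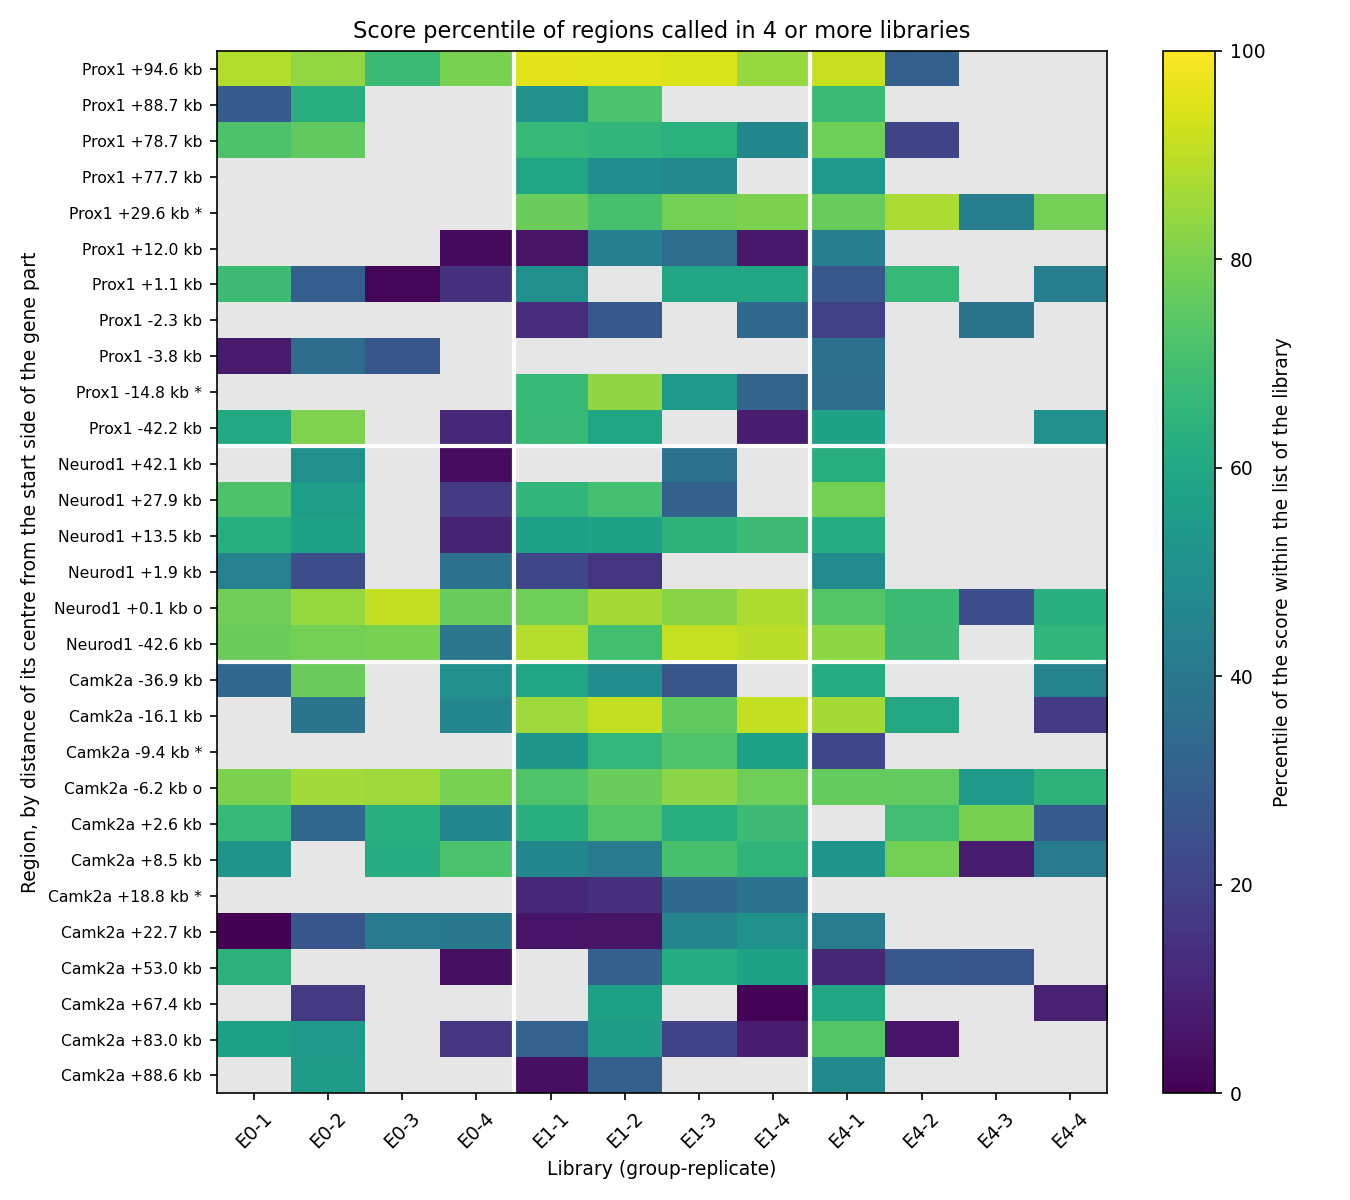
Percentile of the score within the list of each library (columns, group-replicate) for the 29 regions called in 4 or more libraries (rows, by distance of the centre from the start side of the gene part in kb, minus for upstream). Grey marks no peak, a star the 4 regions gained at E1 from E0 and o the 2 regions called in all 12 libraries. The Prox1 region at 29.6 kb is grey in all 4 E0 columns and filled in all 8 others.

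At Camk2a, the site called in all 12 libraries lay 6.22 kb upstream of the start and not on it. This region, on chromosome 18 from 61077922 to 61079631 (1710 bp), is on the side of the neighbouring gene Arsi. Its percentile was 80.2, 86.1, 85.5 and 79.7 in E0 replicates 1 to 4, 72.5, 77.1, 82.4 and 77.8 in E1 and 76.4, 76.1, 54.1 and 64.8 in E4. All values lay above the middle of their lists. The 12 peaks shared 320 bp, from 61078605 to 61078924. With lists of equal length 11 libraries kept the peak, E4 replicate 1 being the exception.

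At the start of Camk2a, 11 of 12 libraries had a peak within 2 kb, and in 10 of them it covered position 61085000, the start side of the gene part. The region from 61084267 to 61090975 (6709 bp) is wide because a peak of 6441 bp in E0 replicate 2 joined separate peaks of other libraries. In the other 10 libraries with a peak at the start, peaks of 426 to 1752 bp shared the 424 bp from 61085008 to 61085431. The percentile was 66.8, 33.9, 51.9 and 46.1 in E0, 63.4, 73.1, 63.1 and 68.5 in E1 and 69.3, 79.4 and 29.1 in E4 replicates 2 to 4. E4 replicate 1, with the longest list of all, had no peak within 2 kb of the start. Its nearest peak in the gene was at the next region, from 61091442 to 61095566, centred 8.50 kb inside, which 11 of 12 libraries shared, all but E0 replicate 2. Another wide region, from 61106215 to 61109262, had a peak in all E0 and all E1 libraries and in E4 replicate 1 alone. Without that library it was lost at E4 from both groups. The peak of E0 replicate 1, from 61106571 to 61107392 at percentile 0.328, overlapped none of the other E0 peaks. The loss from E0 rests on counting that peak, and the 8 peaks besides it shared 437 bp. The peaks of this region were low, at percentile 0.328 to 51.2.

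A pair of regions of the Camk2a window were gained at E1. The region 9.43 kb upstream of the start, from 61075281 to 61075854 (574 bp), had scores of 117, 165, 147 and 105 in E1 replicates 1 to 4, at percentiles 52.8, 66.2, 72.6 and 57.2, and no peak in E0. Among E4 libraries, replicate 1 had a peak, at percentile 21.2. The region was also gained when peaks had to span 50% of it and with scores of at least 100. The call was lost with lists of equal length, where 1 E1 library kept its peak. The region 18.8 kb inside the gene, from 61103384 to 61104302 (919 bp), was present in E1 alone and was the region lost at E4 from E1. Its E1 peaks were weak, with scores of 57.4, 60.01, 73.5 and 78.0 at percentiles 10.98, 13.6, 34.2 and 38.2, and none was kept with lists of equal length. A peak of E0 replicate 2 ended at 61103346, so joining peaks up to 100 bp apart removed the gain at E1. The series held 522 regions with a peak in the 4 E1 libraries and no other.

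A further upstream site of Camk2a was called in more E1 than E0 libraries. The region 16.1 kb upstream, from 61068335 to 61069518, scored 90.2 and 83.0 in E0 replicates 2 and 4 and had no peak in the other E0 libraries. Its scores were 312, 415, 158 and 269 in E1 and 473, 103 and 62.5 in E4 replicates 1, 2 and 4. The percentile was 38.5 and 46.4 in the E0 pair and 75.4 to 90.9 in E1. It did not meet the criterion with lists as deposited, and was gained at E1 with scores of at least 100. Toward the far end of the gene, 53.0 kb from the start, the region from 61137294 to 61138637 had a peak in 2 E0, 3 E1 and 3 E4 libraries, at percentiles from 3.86 to 64.1. Beyond the gene, 83.0 kb from the start on the side of Slc6a7, the region from 61167565 to 61168361 had a peak in 3, 4 and 2 libraries, and none of these was kept with lists of equal length. No peak lay within 2 kb of the far end of the gene part.

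Leaving out E4 replicate 1 raised the number of regions lost at E4 from E1 from 1 to 6 of 44 (13.6%). The share of all regions of the series rose too, to 7.0%. The 6 were 2 at Prox1 (12.04 kb inside the gene and 14.8 kb upstream), 1 at Neurod1 (13.5 kb downstream of the start) and 3 at Camk2a (9.43 kb upstream and 18.8 and 22.7 kb inside). The number lost at E4 from E0 rose from 0 to 1 of 47 (2.13%, against 3.19% of all regions), the Camk2a region 22.7 kb inside the gene. There the peak of E0 replicate 1 lay apart from the other E0 peaks. The region inside Prox1 stayed gained at E4 whichever of the 8 libraries was left out. The criterion fixes this in advance for any region gained with all libraries, so it adds no support.

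The length covered by peaks sums over all regions of a window. At Prox1, peaks covered 3.10, 7.39, 1.33 and 1.41 kb in E0 replicates 1 to 4, 7.40, 7.96, 5.04 and 3.49 kb in E1 and 14.2, 1.51, 0.755 and 1.32 kb in E4. The means were 3.31 ± 2.84 kb in E0, 5.97 ± 2.08 kb in E1 and 4.45 ± 6.52 kb in E4 (SD, n = 4). All 4 E1 values lay above the E0 mean, but the groups overlapped because of E0 replicate 2 (exact permutation test of E1 against E0, two-sided, p = 0.171, adjusted p = 0.874). The E4 mean rested on replicate 1, whose value exceeded all 11 others. Without it the E4 mean was 1.20 ± 0.394 kb (SD, n = 3).

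At Neurod1, peaks covered 5.44, 5.46, 0.757 and 2.12 kb in E0, 5.20, 4.24, 2.15 and 1.77 kb in E1 and 7.20, 0.860, 0.380 and 0.663 kb in E4. The means were 3.45 ± 2.38 kb in E0, 3.34 ± 1.65 kb in E1 and 2.28 ± 3.29 kb in E4 (SD, n = 4), and the E4 mean without replicate 1 was 0.634 ± 0.241 kb (SD, n = 3). Camk2a had 8.45, 15.4, 3.91 and 6.53 kb in E0, 8.91, 16.8, 5.66 and 7.64 kb in E1 and 17.98, 3.73, 2.13 and 2.41 kb in E4. Its means were 8.59 ± 4.94, 9.74 ± 4.87 and 6.56 ± 7.64 kb (SD, n = 4), and that of E4 without replicate 1 was 2.76 ± 0.855 kb (SD, n = 3). In none of the 9 comparisons of covered length did the groups stay apart. Over all 150 kb windows of the genome, groups did not overlap in 8.25% for E1 against E0, 0.325% for E4 against E0 and 1.07% for E4 against E1.

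**Figure D3:**
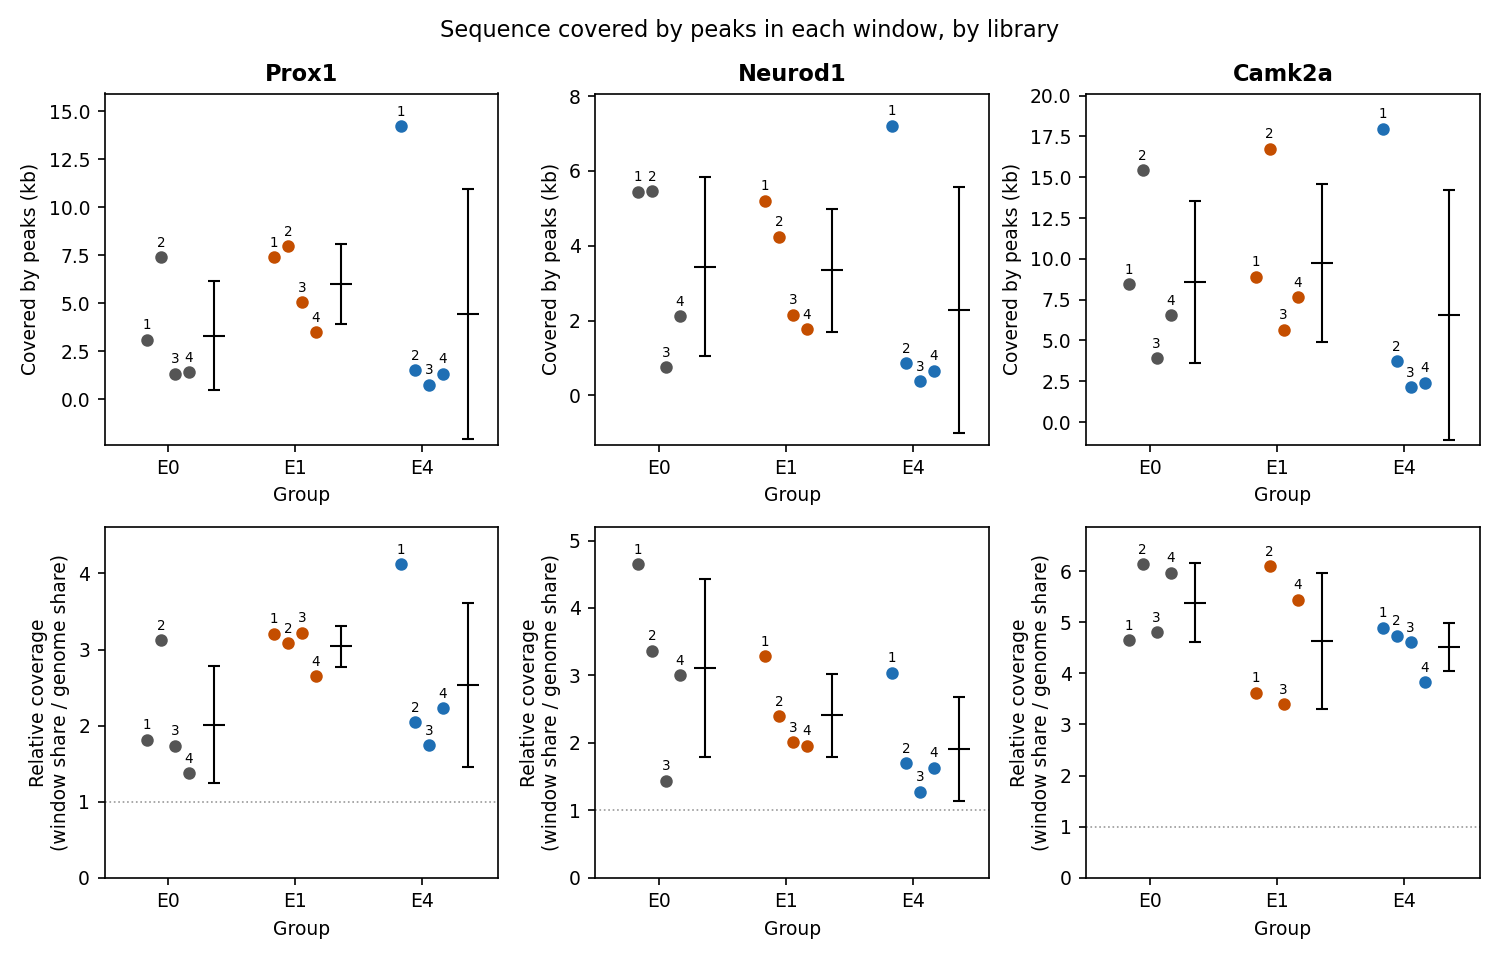
Length covered by peaks (upper row, kb) and relative coverage (lower row, share of the window covered over share of the genome covered) by group, 1 point for each library, labelled with its replicate number. Bars are the mean and SD of the 4 libraries and the dotted line marks relative coverage of 1. E4 replicate 1 stands far above the other E4 libraries in covered length, and all values of relative coverage are above 1.

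To set the windows against the length of each list, relative coverage was taken as the share of the window covered by peaks over the share of chromosomes 1 to 19 and X covered in the same library. All 3 windows were richer in peaks than the genome in 12 of 12 libraries. The median relative coverage was 4.77 (3.40 to 6.13) at Camk2a, 2.44 (1.37 to 4.12) at Prox1 and 2.20 (1.28 to 4.65) at Neurod1. In the median library, Camk2a exceeded 99.0% of 16273 windows of 150 kb, Prox1 88.3% and Neurod1 86.9%. The windows of these genes measured 163, 153 and 105 kb and were set around a gene. The 150 kb windows were consecutive and not chosen for genes, so these ranks do not place the loci among genes. Camk2a was above Prox1 in 12 of 12 libraries and above Neurod1 in 11 of 12, and Neurod1 was above Prox1 in 4 of 12.

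Relative coverage at Prox1 was 1.81, 3.13, 1.74 and 1.37 in E0, 3.21, 3.08, 3.22 and 2.65 in E1 and 4.12, 2.05, 1.74 and 2.23 in E4. The group means were 2.01 ± 0.767, 3.04 ± 0.268 and 2.53 ± 1.08 (SD, n = 4). E1 was 1.51 times E0, with 4 of 4 E1 libraries above the E0 mean, and the difference of 1.03 did not pass (exact permutation test, two-sided, p = 0.0857, adjusted p = 0.874). E0 replicate 2 was the only E0 library within the range of E1. Without it the difference was 1.40 (exact permutation p = 0.0286, the smallest that 3 against 4 can give). Leaving out the overlapping library sets the groups apart in advance, so that p adds no support. With all libraries and scores of at least 100 the difference was 1.82 (exact permutation p = 0.0286). E4 minus E1 was -0.506 (exact permutation p = 0.429, adjusted p = 0.874) and, without E4 replicate 1, -1.03 (exact permutation p = 0.0286). E4 replicate 1 was the only E4 library above the lowest of E1, so this p adds no support either. With lists of equal length E4 minus E1 was -0.0993.

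At Neurod1, relative coverage was 4.65, 3.36, 1.44 and 3.003 in E0, 3.29, 2.39, 2.01 and 1.96 in E1 and 3.04, 1.70, 1.28 and 1.63 in E4. The means were 3.11 ± 1.32, 2.41 ± 0.614 and 1.91 ± 0.776 (SD, n = 4), and each group overlapped the others. At Camk2a it was 4.65, 6.13, 4.80 and 5.96 in E0, 3.62, 6.09, 3.40 and 5.44 in E1 and 4.89, 4.74, 4.61 and 3.82 in E4, with means of 5.38 ± 0.771, 4.64 ± 1.33 and 4.51 ± 0.474 (SD, n = 4). All 4 E4 values lay below the E0 mean at both genes. The difference of E4 from E0 was -1.20 at Neurod1 (exact permutation p = 0.20, adjusted p = 0.874) and -0.870 at Camk2a (exact permutation p = 0.171, adjusted p = 0.874). With lists of equal length these were -0.287 and -0.468, and without E0 replicate 1 the difference at Neurod1 was -0.692. Of the 18 tests of covered length and relative coverage, 0 had an unadjusted exact permutation p under 0.05 and adjusted p ran from 0.874 to 0.914. Groups overlapped in all 9 comparisons of relative coverage, where 13.1% of all 150 kb windows stayed apart for E1 against E0, 6.41% for E4 against E0 and 7.37% for E4 against E1.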

How the data were processed

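The authors deposited a peak list for every library, in which each peak has a position and a score, and these deposited scores were used as they are. The submitters' processing notes name Bowtie2 and mm9. Peak names carry the MACS prefix, per the file contents. The sources used here do not state the version and threshold of the caller, its control, the shift of reads for the transposase, or the filters on duplicate and mitochondrial reads, all of which can change the length of a list. No reads per peak are listed, so depth is unknown and no interval for counting error is given.

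Peaks on chromosomes 1 to 19 and X were merged where they shared at least 1 bp, and bedtools 2.31.1 gave the same number of regions. Covered length and relative coverage were compared by exact two-sided permutation over the 70 assignments of 8 libraries (smallest p 0.0286), with Benjamini-Hochberg adjustment over 18 tests. The rest used python 3.11.15, and the calls and tests were tested on simulated data. Named were all gained or lost regions, up to 5 regions per window called in all 12 libraries, and regions within 2 kb of an end of a gene part. Other regions in the text were chosen after their values were seen. The members and lists were chosen with earlier results of these data known. Alternatives were lists of equal length, scores of at least 100, the gene part alone, peaks by midpoint, merging across 100 bp, 50% of a region covered, each library left out, and a replicate block.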

Additional observations from a re-analysis of the deposited data

Results flagged for a closer look

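Of the 45 sets of libraries examined, spread over E0, E1 and E4, 10 were flagged by Dixon's criterion for 4 values. In all 10, E4 replicate 1 stood apart from the other E4 libraries. No E0 or E1 library was flagged. Chance alone flags about 1 set in 20, and the sets of a library are not independent of each other. At Prox1, E4 replicate 1 had 19 peaks (next highest 4) and covered 14.2 kb (next 1.51 kb), with 6.59 kb in the gene part and 7.62 kb in the flanks. At Neurod1 it had 9 peaks (next 2) over 7.20 kb, of which 2.34 kb lay in the gene part and 4.86 kb in the flanks. At Camk2a it covered 17.98 kb (next 3.73 kb), with 9.98 kb in the flanks (next 1.31 kb). Its list was the longest of the 12, with 104120 peaks. In relative coverage, which divides by the share of the genome covered in the same list, it did not stand apart by this criterion.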

How the results depend on the processing

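None of the 18 differences in covered length or relative coverage passed with all libraries and peaks. In relative coverage, Prox1 E1 minus E0 passed the unadjusted threshold without E0 replicate 2 (1.40) and with scores of at least 100 (1.82), and Prox1 E4 minus E1 without E4 replicate 1 (-1.03, exact permutation p = 0.0286 in each). The libraries left out here were the only ones that kept the groups from standing apart, so those p-values were fixed in advance and add no support. The sign of covered length turned with lists of equal length for E1 minus E0 at Neurod1 (0.0565 kb) and Camk2a (-0.735 kb). With scores of at least 100 it turned at Neurod1 for E1 (0.563 kb) and E4 (0.175 kb) minus E0 and at Camk2a for E4 minus E0 (2.09 kb). Relative coverage turned with lists of equal length at Neurod1 for E1 minus E0 (0.142) and at Camk2a for E4 minus E1 (0.837). With scores of at least 100 it turned at Neurod1 for E1 (0.252) and E4 (0.0679) minus E0, and at Camk2a for E1 (0.976) and E4 (1.40) minus E0 and E4 minus E1 (0.420). The cause was not tested. With a library left out, covered length ran from -2.11 to 2.51 kb for Prox1 E4 minus E0, -0.999 to 0.569 kb for Neurod1 E1 minus E0, -1.18 to 3.44 kb for Camk2a E1 minus E0 and -5.83 to 0.263 kb for Camk2a E4 minus E0. Relative coverage ran from 0.815 to 1.40 for Prox1 E1 minus E0, -0.00677 to 0.893 for Prox1 E4 minus E0, -1.03 to -0.242 for Prox1 E4 minus E1 and -0.538 to 0.36 for Camk2a E4 minus E1. Lost regions ran from 0 to 1 for E1 against E0 and for E4 against E0, and from 1 to 6 for E4 against E1.

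The 4 regions gained at E1 became 1 with lists of equal length and 1 when a peak had to span 50% of its region. With scores of at least 100, the region inside Prox1 and the Camk2a region 9.43 kb upstream stayed gained at E1. The Camk2a region 16.1 kb upstream was then gained as well, and the other gains were not called. The region gained at E4 from E0 became 0 with scores of at least 100 and 0 at 50%. The region lost at E4 from E1 became 0 with lists of equal length and 0 at 50%. With scores of at least 100 that region had no peak, since its E1 scores were 78.0 at most. The loss called there was the Camk2a region 9.43 kb upstream. The 2 regions called in all 12 libraries became 0 with lists of equal length, 0 with scores of at least 100 and 0 at 50%. With lists of equal length, 6574 of the 65719 regions of the series with a peak were called in all 12 libraries, against 0 of 22 in the windows. Equal length leaves fewer peaks, which limits what can be called in the longer lists. The labels do not say whether a replicate number pairs libraries across groups. In a check for such pairing, same-numbered libraries correlated at -0.028 to 0.0977, and 3 of 12 correlated best with their own number. These values cannot show that the libraries were not handled in pairs. With a replicate block, the difference of E1 from E0 in relative coverage at Prox1 was 1.03 (exact permutation p = 0.25). No call changed, and 4 pairs are too few for this test to pass the threshold.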
